A study of Rattus norvegicus with 30 samples.

Results

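The collagens, laminins, fibrillins, fibulins and matrix-remodelling proteins of the ileum were followed across gastric bypass and sleeve gastrectomy. The set was drawn from the array's annotation by gene symbol alone: every gene whose symbol begins as a collagen chain (Col), a laminin chain (Lama, Lamb or Lamc), a fibrillin (Fbn), a fibulin (Fbln), a matrix metalloproteinase (Mmp), a tissue inhibitor of them (Timp) or an ADAMTS protein. It held 75 genes of the 14557 symbols that the array named with a transcript cluster of their own, and the brightest cluster stood for each symbol. Of the 75, 63 were bright enough to test, among 10918 genes tested in all.

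Ileum was taken from 30 male Long-Evans rats of the WT genotype, aged 8 to 10 weeks, kept under specific-pathogen-free conditions, with 1 array per rat and 6 rats per group, each labelled a biological replicate. Rats labelled RYGB had a Roux-en-Y gastric bypass, and Sham_RYGB rats were their sham controls. Rats labelled VSG had a vertical sleeve gastrectomy, and their sham controls were either pair-fed (Sham_VSG_PF) or not (Sham_VSG). All rats were moved to a liquid diet on the day before surgery and were operated on under isoflurane. In VSG about 80% of the stomach was cut away with a stapler, and in the sham for it blunt forceps pressed the stomach along the same line. The labels do not describe the steps of the bypass or of its sham, nor how long after surgery the tissue was taken, and the duodenum that the series also mentions was not analysed here.

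The extracellular matrix holds the gut wall together. Fibrillar collagens form the tensile strands of the submucosa and of the connective tissue around muscle and vessels. Type IV collagen and laminin form separate networks in the basement membrane on which the epithelium rests, and fibrillins and fibulins build elastic and microfibrillar scaffolds. Matrix metalloproteinases and ADAMTS proteases cut these proteins, and TIMP proteins inhibit the metalloproteinases. In the gut these genes are read mostly in fibroblasts, muscle, vessel and immune cells, with some in epithelium, such as the Paneth cell protease matrilysin (Mmp7).

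The rat genes for several of these proteins lie side by side. In the RefSeq annotation, 8 of the set's metalloproteinase genes are neighbours on chromosome 8, in the order Mmp13, Mmp3, Mmp1, Mmp10, Mmp8, Mmp27, Mmp20 and Mmp7, with Mmp12 and Mmp1b, which are not in the set, between Mmp13 and Mmp3. Of the 4 neighbours bright enough to test, the stretches upstream of 3 are shown, without that of Mmp13. They run from 170 to 21 bases before an annotated start on the plus strand of GRCr8. The places are chr8:13132873-13133022 for Mmp7, chr8:12974537-12974686 for Mmp10 and chr8:13008720-13008869 for Mmp8. For Mmp8 the start used lies downstream of the start of the gene in RefSeq, chr8:13008873. Capitals mark the AP-1 motif, the letters TGACTCA or their reverse complement TGAGTCA.
Mmp7: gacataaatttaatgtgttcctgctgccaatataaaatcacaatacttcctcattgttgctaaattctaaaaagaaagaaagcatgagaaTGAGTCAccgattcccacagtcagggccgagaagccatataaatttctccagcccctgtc
Mmp10: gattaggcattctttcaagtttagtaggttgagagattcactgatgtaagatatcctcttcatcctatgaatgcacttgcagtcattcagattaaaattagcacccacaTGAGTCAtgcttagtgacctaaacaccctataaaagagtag
Mmp8: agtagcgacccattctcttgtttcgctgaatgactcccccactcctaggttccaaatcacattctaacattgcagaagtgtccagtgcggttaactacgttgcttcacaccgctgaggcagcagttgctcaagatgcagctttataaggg
The motif lay 80 bases before the start in Mmp7 and 61 bases before it in Mmp10, and these letters were not in the Mmp8 stretch. Across promoters of 250 bases before to 50 bases after the start, searched on both strands, 1245 of 27457 held the motif (4.53%). Among the 58 genes of the set that had a promoter in the RefSeq table, 6 held it, which were Col6a1, Mmp1, Mmp3, Mmp7, Mmp10 and Mmp13. A match is only a description of the letters.

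Col4a1 and Col4a2, which encode the 2 chains of the common type IV collagen molecule, start head to head on chromosome 16. The 76 bases between their annotated starts (GRCr8, chr16:84885521-84885596, plus strand) are shown. Whether this stretch bears on the signals of the 2 genes was not tested. Capitals mark a GC box, the letters GGGCGG or their reverse complement CCGCCC.
Col4a1 and Col4a2: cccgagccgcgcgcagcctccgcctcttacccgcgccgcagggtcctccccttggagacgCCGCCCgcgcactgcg
The GC box was in 9580 of the 27457 promoters (34.9%) and in 31 of the 58 matched genes of the set. It does not overlap the AP-1 motif in any stretch shown.

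All values are log2 signals made by the authors with RMA, and a signal of one gene is not set against that of another, since probes differ in brightness. The arrays were similar in scale, with median log2 signals of 3.10 to 3.25. Markers of the labelled tissue were bright in every array: Fabp6, the ileal bile acid binding protein, lay between 11.84 and 12.21 in all 5 groups, and Slc10a2, the ileal bile acid transporter, between 9.77 and 10.84. The arrays differed most in lymphoid content. The mean of 11 B and plasma cell genes fell into a range of 6.66 to 8.04 in 11 arrays (1 RYGB, 3 Sham_RYGB, 2 VSG, 2 Sham_VSG_PF and 3 Sham_VSG) and of 3.86 to 4.81 in the other 19. The mean of 10 fat cell genes was 6.11 to 7.10 in 4 arrays, 3 of RYGB and 1 of VSG, and 3.74 to 4.45 in the other 26. In whole tissue, fewer cells of a type and less RNA per cell cannot be told apart.

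The first question was whether either operation changed the matrix genes. No gene of the set passed the limma test in any comparison at an adjusted p of 0.05. For RYGB against Sham_RYGB, 0 of the 63 genes were called, while 0.183% of all genes tested were called (20 genes). Before adjustment, 3 of the 63 (4.76%) had a p under 0.05, against 13.0% of all genes tested. They were Adamts15 and Fbn1, higher in RYGB, and Timp1, lower in RYGB. The median log2 difference of the set was 0.06, with 38 genes higher and 25 lower in RYGB, while the median of all genes tested was -0.01.

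VSG gave no call either. Against Sham_VSG_PF, 0 of the 63 genes were called, as were 0.0% of all genes, and before adjustment 1 gene (1.59%), the membrane-type metalloproteinase Mmp17, had a p under 0.05, against 5.94% of all genes. Against Sham_VSG, 0 of the 63 and again 0.0% of all genes were called, and 4 genes (6.35%) had an unadjusted p under 0.05, against 6.05% of all genes. These were Col20a1, Col4a2 and Lama5, higher in VSG, and Lama1, lower in VSG. The set's median log2 difference was 0.03 against Sham_VSG_PF and 0.01 against Sham_VSG. The 2 comparisons share the VSG arrays.

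The spread between rats left no gene of the set with separate groups. RYGB lay wholly above Sham_RYGB for 0 of the 63 genes (0.458% of all genes) and wholly below it for 0 (0.247%). VSG lay wholly above Sham_VSG_PF for 0 (0.11% of all genes) and wholly below it for 0 (0.156%). The same held against Sham_VSG, where 0.055% of all genes lay wholly above and 0.22% wholly below.

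For most of the structural genes, as for most genes tested, the intervals were narrow enough to limit the size of a change in signal. RMA compresses low signals, so for dim genes such as Lama1 they limit a change in RNA less closely. The 95% confidence interval lay wholly within a 1.5-fold change in either direction for 47 of the 63 genes in RYGB against Sham_RYGB (74.6%, and 71.7% of all genes tested). It did so for 51 genes in VSG against Sham_VSG_PF (81.0%, and 77.7% of all) and for 49 in VSG against Sham_VSG (77.8%, and 76.5% of all). All 7 tested laminins, all 5 tested basement membrane collagens and all 3 tested microfibril and network collagens were within this limit in each of the 3 comparisons. Of the 8 tested fibrillar collagens, 7 were within it for RYGB, the exception being Col5a3 (0.29, interval -0.02 to 0.60), and 8 were for VSG against either sham. Classes with fewer genes within it for RYGB were the ADAMTS-like proteins and the TIMP inhibitors, with 1 of 3 each, the fibril-associated and transmembrane collagens, with 5 of 9, and the metalloproteinases, with 8 of 13.

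**Figure D1:**
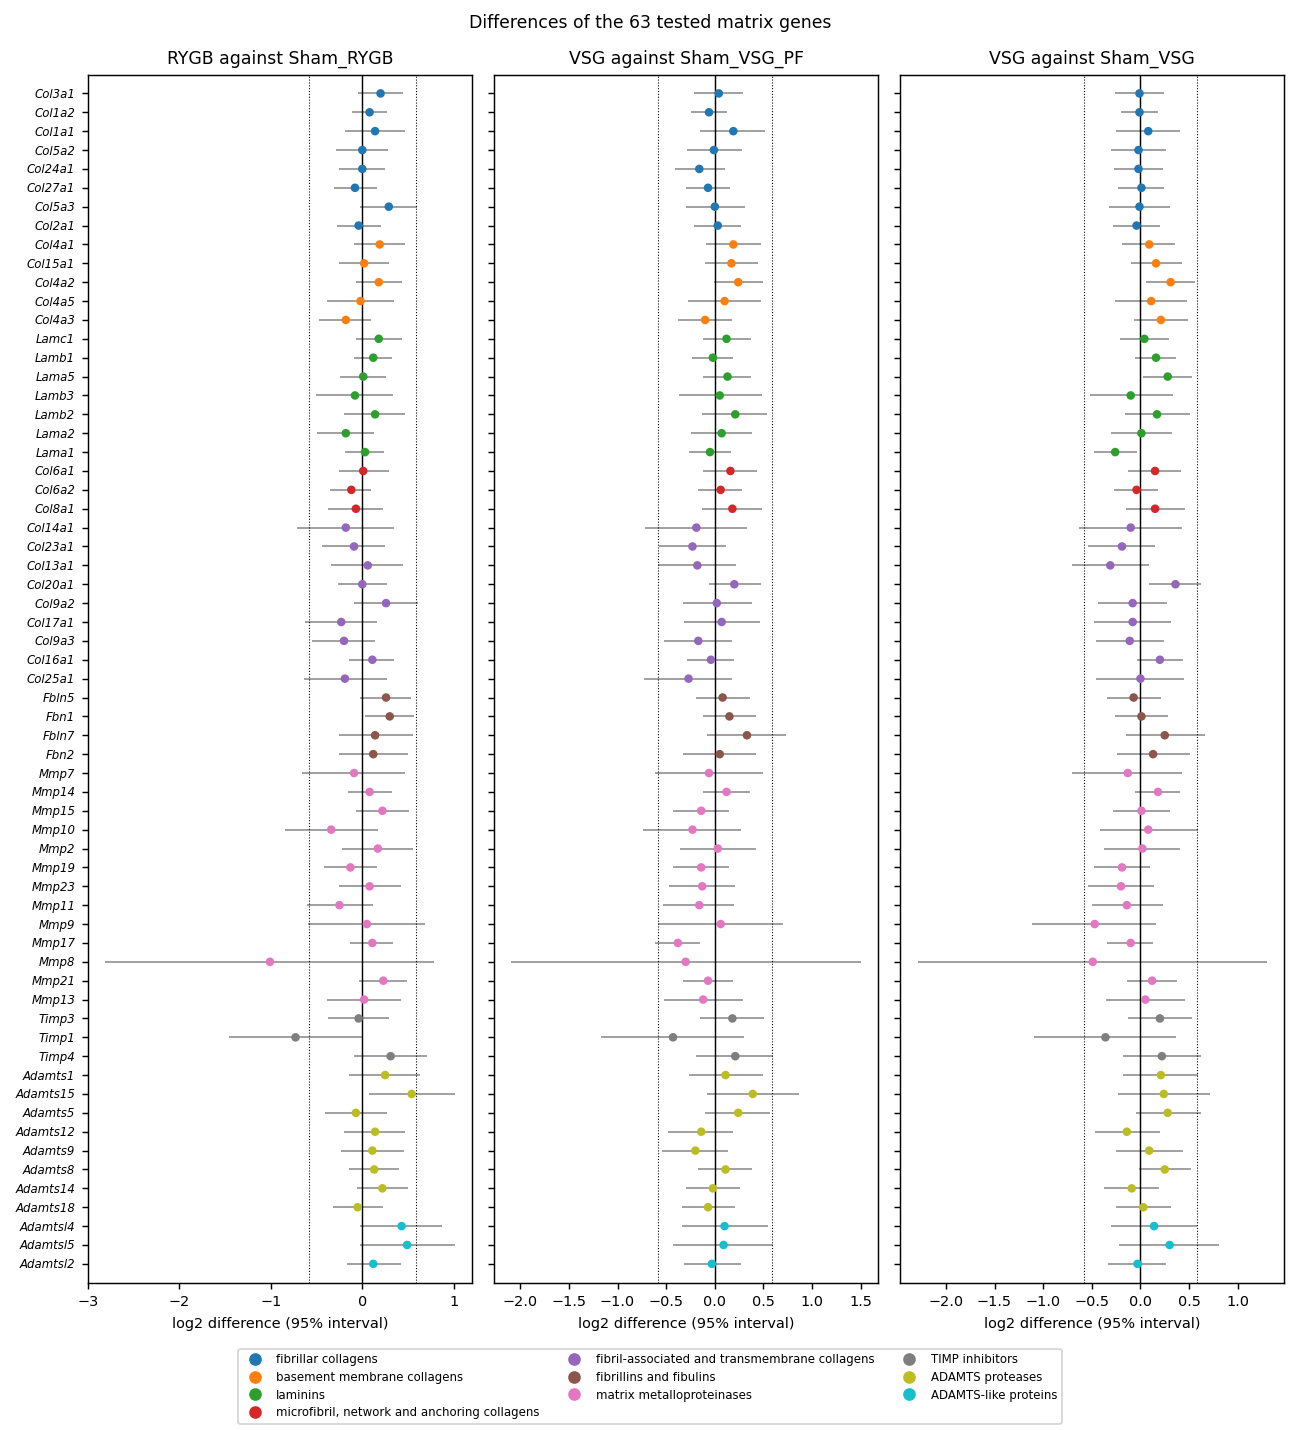
Log2 difference and 95% confidence interval for each of the 63 tested genes, coloured by class, in RYGB against Sham_RYGB, VSG against Sham_VSG_PF and VSG against Sham_VSG (6 rats per group). The solid line marks no difference and the dotted lines a 1.5-fold change, and the intervals of Mmp8 and Timp1 are the widest in each panel.

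Fibrillar collagens make the strands that resist stretch. Col1a1, the first chain of type I collagen, had log2 signals of 4.62 to 5.73 in RYGB (median 5.38) and 5.00 to 5.28 in Sham_RYGB (median 5.16). In VSG it ran from 4.93 to 5.31 (median 5.07), in Sham_VSG_PF from 4.43 to 5.32 (median 4.91) and in Sham_VSG from 4.60 to 5.47 (median 5.03). The RYGB rats spread on both sides of their shams, and all 5 groups overlapped. The log2 difference was 0.14 for RYGB (interval -0.19 to 0.47, adjusted p = 0.718 by limma) and 0.08 for VSG against Sham_VSG (-0.25 to 0.41, adjusted p = 0.925).

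Col1a2, its partner chain, was the steadiest gene of the set, with a residual SD of 0.15 within groups. It lay at 6.34 to 6.79 in RYGB (median 6.58) and 6.35 to 6.60 in Sham_RYGB (median 6.48), and at 6.24 to 6.59 in VSG (median 6.38), 6.21 to 6.71 in Sham_VSG_PF (median 6.46) and 6.25 to 6.56 in Sham_VSG (median 6.42). The ranges overlapped almost fully, and the difference was 0.08 for RYGB (-0.11 to 0.27) and -0.01 for VSG against Sham_VSG (-0.20 to 0.18). Col3a1, the type III chain of distensible tissues, lay at 7.14 to 7.73 in RYGB (median 7.64) and 6.85 to 7.51 in Sham_RYGB (median 7.41). Most RYGB rats were above the highest sham, but the lowest was not, and 1 sham rat stood well below the others. Its difference was 0.20 for RYGB (-0.05 to 0.45, adjusted p = 0.493) and -0.01 for VSG against Sham_VSG (-0.26 to 0.24, adjusted p = 0.986). The 8 tested fibrillar collagens had median differences of 0.04 for RYGB and -0.01 for VSG against Sham_VSG, and between them ran from -0.04 to 0.08 in the VSG comparison.

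Basement membrane collagens gave the smallest p for any difference among the 5 groups. For Col4a2 the limma F test gave an adjusted p of 0.307. In that test 0 of the 63 genes were called, against 0.128% of all genes (14 genes), and 5 genes of the set had an unadjusted p under 0.05 (7.94%, and 10.6% of all genes): Col4a2, Col20a1, Col4a1, Mmp17 and Fbn1. Col4a2 lay at 4.47 to 4.88 in RYGB (median 4.72) and 4.30 to 4.80 in Sham_RYGB (median 4.52). It lay at 4.04 to 4.82 in VSG (median 4.68), 4.15 to 4.50 in Sham_VSG_PF (median 4.36) and 3.90 to 4.50 in Sham_VSG (median 4.29).
All operated rats but 1 of VSG lay above the medians of both sleeve sham groups, and every pair of groups named here overlapped. The VSG difference was 0.31 against Sham_VSG (0.06 to 0.56, adjusted p = 0.776) and 0.24 against Sham_VSG_PF (-0.01 to 0.49, adjusted p = 0.833), and the RYGB difference was 0.18 (-0.07 to 0.43, adjusted p = 0.537). In the arrays low in B and plasma cell genes alone, the 2 VSG differences were both 0.12 and the RYGB difference was 0.00.

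Col4a1 gave smaller differences for VSG, 0.19 against Sham_VSG_PF and 0.09 against Sham_VSG, and 0.19 for RYGB, with adjusted p of 0.559 or more in each. Col15a1, which links basement membranes to the tissue beneath, differed by 0.02 for RYGB and 0.16 for VSG against Sham_VSG, and Col4a3, a chain best known from kidney and lung, by -0.18 and 0.21. The difference between the 2 Col4a3 values was -0.40 (-0.79 to 0.00, adjusted p = 0.851). No gene of the set was called in that comparison of the RYGB effect with the VSG effect (0.0% of all genes), and 0 of the 63 had an unadjusted p under 0.05, against 5.72% of all genes. Its intervals were wider, and 26 of the 63 genes (41.3%, and 48.2% of all) had one within 1.5-fold. When the 4 arrays with high fat cell signals were left out, the RYGB difference of Col4a3 turned to 0.03, its VSG difference from Sham_VSG was 0.12 and the difference between them was -0.09.

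Laminins join cells to the basement membrane as trimers of an alpha, a beta and a gamma chain. Lamc1, the most widely used gamma chain, had signals of 6.52 to 7.11 in RYGB (median 6.89) and 6.23 to 7.03 in Sham_RYGB (median 6.70), and of 6.59 to 6.93 in VSG (median 6.74), 6.45 to 6.94 in Sham_VSG_PF (median 6.62) and 6.48 to 7.02 in Sham_VSG (median 6.76). All groups overlapped, and the differences were 0.18 for RYGB (-0.07 to 0.43) and 0.04 for VSG against Sham_VSG (-0.21 to 0.29). Lamb1, a beta chain, differed by 0.12 and 0.16, and Lamb3, the beta chain of the epithelial anchoring laminin, by -0.08 and -0.10.

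Lama5, the main alpha chain under adult gut epithelium, lay at 5.21 to 5.71 in VSG (median 5.51), 5.09 to 5.85 in Sham_VSG_PF (median 5.32) and 5.00 to 5.50 in Sham_VSG (median 5.18). VSG rats were mostly in the upper part of the Sham_VSG range or above it, and the difference was 0.28 (0.03 to 0.53, adjusted p = 0.788), while in RYGB it was 0.01 (-0.24 to 0.26, adjusted p = 0.973). Lama1, an alpha chain best known from embryonic tissue, was dim: 2.47 to 2.64 in VSG (median 2.62), 2.40 to 2.95 in Sham_VSG_PF (median 2.64) and 2.60 to 3.21 in Sham_VSG (median 2.84). Here the freely fed sleeve shams had the highest median of the groups, with overlap, and the difference of VSG from them was -0.26 (-0.48 to -0.04, adjusted p = 0.788).

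The comparisons among sham groups bear on such values. Sham_VSG_PF against Sham_VSG, which asks what paired feeding did, called 0 of the 63 genes (0.0% of all genes), with 2 at an unadjusted p under 0.05 (3.17%, and 5.33% of all genes), Mmp17 and Col4a3, both higher in Sham_VSG_PF. Sham_RYGB against Sham_VSG called 0 (0.0% of all genes), with 4 at an unadjusted p under 0.05 (6.35%, and 4.71% of all genes). Those were Col20a1, Col4a3 and Col4a2, higher in Sham_RYGB, and Lama1, lower in Sham_RYGB. Lama1 differed by -0.26 in Sham_RYGB against Sham_VSG, the size of its VSG difference, and Col20a1 by 0.39, against 0.36 for VSG against Sham_VSG. Both comparisons share the Sham_VSG arrays.

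**Figure D2:**
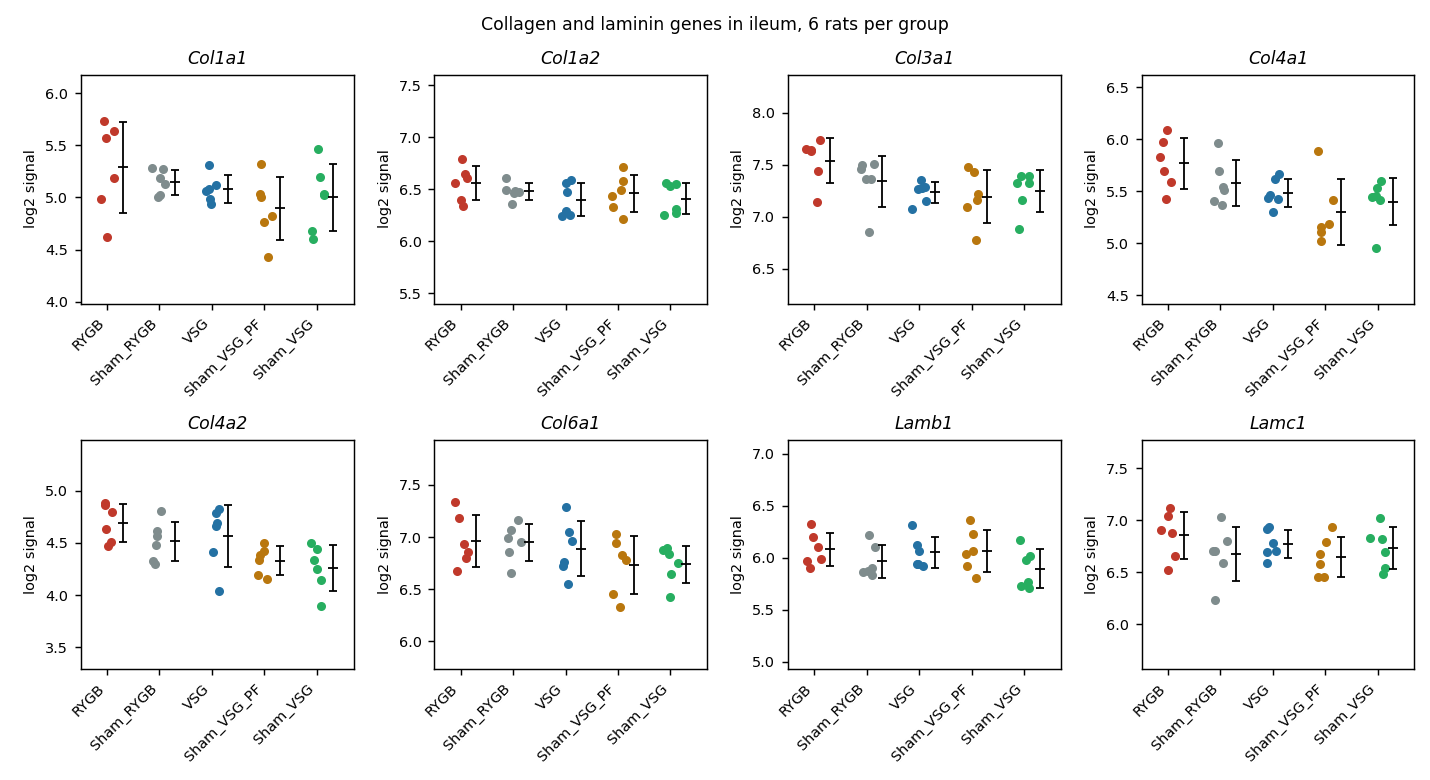
Log2 signal of 6 collagen and 2 laminin genes in each rat (points) with the group mean and SD (bars, 6 rats per group), for RYGB, Sham_RYGB, VSG, Sham_VSG_PF and Sham_VSG. Each vertical axis spans at least 2.2 log2 units, and the groups overlap in every panel.

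Type VI collagen forms beaded microfibrils around cells. Its chains Col6a1 and Col6a2 differed by 0.01 (-0.26 to 0.29) and -0.12 (-0.35 to 0.10) for RYGB, and by 0.15 (-0.13 to 0.42) and -0.04 (-0.27 to 0.18) for VSG against Sham_VSG. Among the 9 tested fibril-associated and transmembrane collagens, 6 were lower and 3 higher in RYGB, with a range of -0.23 to 0.26. Col20a1 had the smallest p for VSG against Sham_VSG: it lay at 2.92 to 3.89 in VSG (median 3.44), 2.95 to 3.61 in Sham_VSG_PF (median 3.2) and 2.96 to 3.24 in Sham_VSG (median 3.10). VSG rats reached both below and above the shams, and the difference was 0.36 (0.09 to 0.62, adjusted p = 0.775). Col23a1, a transmembrane collagen, differed by -0.09 for RYGB and -0.19 for VSG, and Col16a1 by 0.11 and 0.20, with adjusted p of 0.711 or more.

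Chains that assemble in 1 protein varied together among rats of a group. Of 10 pairs listed, 5 had both chains tested. After each group's mean was taken off, the correlation over the 30 arrays was r = 0.59 for Col6a1 with Col6a2 (rho = 0.49), 0.57 for Lama5 with Lamc1 (rho = 0.51) and 0.56 for Col4a1 with Col4a2 (rho = 0.66). It was 0.54 for Lamb1 with Lamc1 (rho = 0.58) and 0.47 for Col1a1 with Col1a2 (rho = 0.42). Permutation tests with 100000 resamples, adjusted over the 5 pairs, gave p of 0.00859 or less for r and 0.0211 or less for rho.
Without the 2 arrays farthest from the median of the first chain, r was 0.46 to 0.54. Within the 19 arrays low in B and plasma cell genes r was 0.42 to 0.64, and within the 11 high ones 0.36 to 0.71. Over all 1953 pairs of tested genes in the set the median r was 0.06, with the 5th and 95th percentiles at -0.36 and 0.50. Differences between the correlations of the 5 pairs were not tested.
The mean of 5 pericyte genes (Pdgfrb, Cspg4, Notch3, Abcc9 and Kcnj8), markers of the cells that wrap small vessels, ranged from 4.97 to 5.74 over the 30 arrays. In a calculation chosen after the data were seen, its deviation from the group mean was also taken off each chain. The correlation was then r = 0.53 for Col4a1 with Col4a2 (rho = 0.58), with an adjusted permutation p of 0.0123 for r and 0.00535 for rho. It was 0.40 for Col1a1 with Col1a2 (rho = 0.35), 0.32 for Lamb1 with Lamc1 (rho = 0.29), 0.31 for Lama5 with Lamc1 (rho = 0.25) and 0.16 for Col6a1 with Col6a2 (rho = 0.24). None of these 4 passed, with adjusted permutation p of 0.0729 to 0.392 for r and 0.151 to 0.192 for rho. Without the 2 farthest arrays, r was 0.51 for the type IV chains and 0.11 to 0.36 for the other pairs.

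**Figure D3:**
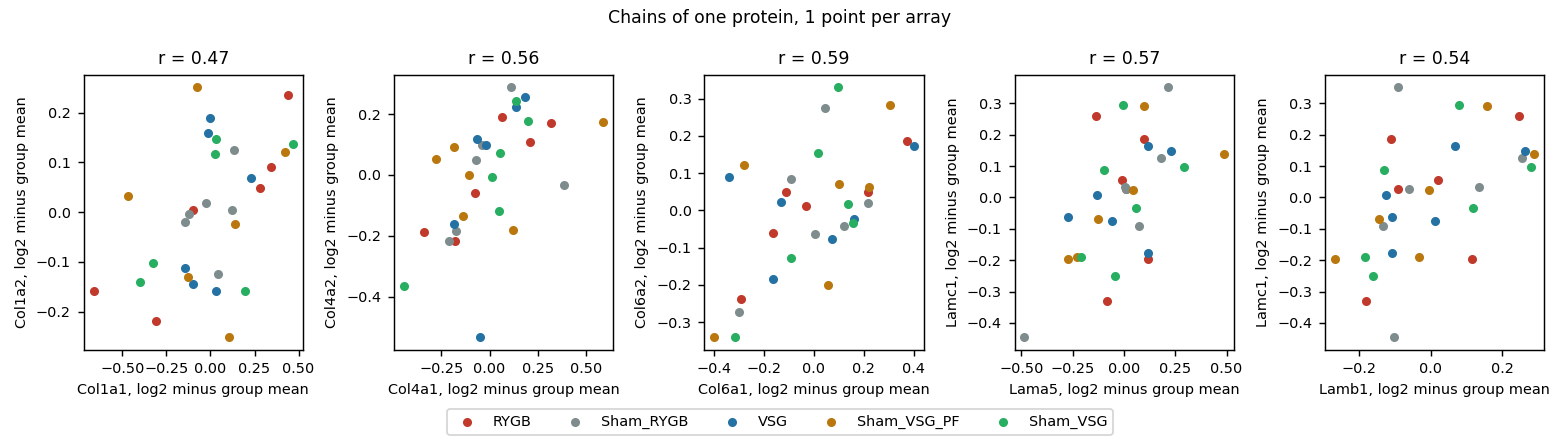
Log2 signal minus the group mean for the 2 chains of each pair, 1 point per array, 30 arrays, coloured by group, with Pearson's r above each panel. Points run from lower left to upper right in each of the 5 pairs, with r from 0.47 to 0.59.

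Fibrillins and fibulins were all higher on average in RYGB. The 4 tested genes had log2 differences of 0.12 to 0.30 (median 0.20), and none passed the test. Fbn1, the main fibrillin of elastic microfibrils, lay at 5.34 to 6.06 in RYGB (median 5.82) and 5.15 to 5.62 in Sham_RYGB (median 5.55). All RYGB rats but 1 were above every sham rat. The difference was 0.30 (0.03 to 0.57, a fold of 1.23, adjusted p = 0.342), and in VSG it was 0.15 against Sham_VSG_PF and 0.01 against Sham_VSG. Fbln5, needed for elastic fibre assembly, lay at 5.59 to 6.06 in RYGB (median 5.73) and 5.20 to 5.81 in Sham_RYGB (median 5.48), with a difference of 0.26 (-0.02 to 0.53, adjusted p = 0.417). Its RYGB effect minus its VSG effect was 0.32 (-0.06 to 0.71, adjusted p = 0.889). Fbln7, a short fibulin, differed by 0.14 for RYGB and by 0.33 for VSG against Sham_VSG_PF (-0.08 to 0.73, adjusted p = 0.865), or 0.19 without Sham_VSG_PF replicate 4.

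Metalloproteinases cut collagens and other matrix proteins. Mmp7, matrilysin, which in mice activates Paneth cell defensins, had signals of 7.52 to 8.00 in RYGB (median 7.77) and 6.80 to 8.48 in Sham_RYGB (median 7.90). It had 6.85 to 8.73 in VSG (median 8.07), 7.41 to 8.84 in Sham_VSG_PF (median 7.99) and 7.62 to 8.60 in Sham_VSG (median 8.09). RYGB rats were close together inside the spread of their shams. The difference was -0.09 for RYGB (-0.66 to 0.47, adjusted p = 0.902) and -0.13 for VSG against Sham_VSG (-0.70 to 0.43, adjusted p = 0.926), and both signs turned in some other fits. Mmp10, stromelysin-2, lay at 5.61 to 6.54 in RYGB (median 6.04) and 5.83 to 6.94 in Sham_RYGB (median 6.40). RYGB rats were on average lower, with overlap, and the difference was -0.34 (-0.84 to 0.17, adjusted p = 0.561).

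Mmp14, a membrane-type enzyme that activates Mmp2, was steadier: 7.03 to 7.44 in RYGB (median 7.26), 6.92 to 7.31 in Sham_RYGB (median 7.19), 6.80 to 7.44 in VSG (median 7.03), 6.69 to 7.18 in Sham_VSG_PF (median 7.0) and 6.72 to 7.10 in Sham_VSG (median 6.90). The groups overlapped, with differences of 0.08 for RYGB (-0.16 to 0.32) and 0.18 for VSG against Sham_VSG (-0.06 to 0.41). Mmp17, a membrane-type enzyme held by a lipid anchor, lay at 3.11 to 3.47 in VSG (median 3.27), 3.37 to 3.88 in Sham_VSG_PF (median 3.72) and 2.91 to 3.66 in Sham_VSG (median 3.39). The pair-fed shams stood highest, and their range overlapped that of VSG only at its edge. The difference of VSG from them was -0.38 (-0.61 to -0.15, adjusted p = 0.579 by limma, and 0.126 to 0.871 over the other fits), and from Sham_VSG -0.10 (-0.34 to 0.13, adjusted p = 0.882). The mean of 10 smooth muscle genes was 6.84 to 7.52 in VSG and 7.04 to 7.68 in Sham_VSG_PF, and with that mean as a covariate Mmp17 differed by -0.33. That fit gave the lowest adjusted p, 0.126, although the gene's own unadjusted p was larger there than without the covariate.

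Timp1, an inhibitor of most metalloproteinases, was set apart by 1 rat. It lay at 5.60 to 6.52 in RYGB (median 5.99), while Sham_RYGB ran from 5.75 to 9.43 (median 6.46). The Sham_RYGB replicate 3 gave the 9.43, and the other 5 Sham_RYGB rats lay between 5.75 and 6.64, overlapping RYGB. The difference was -0.73 (-1.46 to 0.00, adjusted p = 0.386), and -0.20 without that replicate (adjusted p = 0.78). The same array had the highest neutrophil list mean of all 30, 5.80, taken over S100a9, Csf3r, Ncf1 and Camp. It also had the highest Mmp9, 5.18, and the lowest Adamts15, 2.48. The part of neutrophil content in these values was not tested.
In the sleeve groups Timp1 was 5.71 to 6.27 in VSG (median 5.99), 5.91 to 6.76 in Sham_VSG_PF (median 6.47) and 5.96 to 6.75 in Sham_VSG (median 6.30). Most VSG rats were below most shams, with overlap, and the differences were -0.43 against Sham_VSG_PF (-1.17 to 0.30, adjusted p = 0.925) and -0.36 against Sham_VSG (-1.09 to 0.37, adjusted p = 0.866). Timp3, the TIMP that binds to the matrix, differed by -0.04 for RYGB and 0.20 for VSG against Sham_VSG, with adjusted p of 0.847 or more.

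ADAMTS proteases cut proteoglycans and procollagens. Adamts15, which cleaves versican and aggrecan, gave the smallest p of the set for RYGB. It lay at 3.65 to 4.90 in RYGB (median 4.11) and 2.48 to 4.21 in Sham_RYGB (median 3.82), with overlap. The difference was 0.54 (0.07 to 1.01, a fold of 1.45, adjusted p = 0.330), 0.31 without Sham_RYGB replicate 3 (adjusted p = 0.657) and 0.26 with the fat cell list as a covariate (adjusted p = 0.725). In VSG it was 0.39 against Sham_VSG_PF (-0.08 to 0.86, adjusted p = 0.865) and 0.24 against Sham_VSG (-0.23 to 0.71, adjusted p = 0.864). Adamts1, another versican-cleaving protease, differed by 0.25 for RYGB and 0.21 for VSG against Sham_VSG, with intervals that held 0.

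ADAMTS-like proteins lack the protease domain, and several bind fibrillin microfibrils. All 3 were higher on average in RYGB, by 0.12 to 0.49 (median 0.43), and none passed the test. Adamtsl4 lay at 5.40 to 6.00 in RYGB (median 5.71) and 4.51 to 5.76 in Sham_RYGB (median 5.40), a difference of 0.43 (-0.02 to 0.87, adjusted p = 0.403). It was 0.27 without Sham_RYGB replicate 2 and 0.10 in the arrays low in B and plasma cell genes. Adamtsl5 lay at 4.15 to 5.83 in RYGB (median 5.28) and 4.34 to 5.05 in Sham_RYGB (median 4.63), a difference of 0.49 (-0.02 to 1.01, adjusted p = 0.410). It was 0.35 without RYGB replicate 2 and 0.31 with the B and plasma cell mean as a covariate (adjusted p = 0.688). In the arrays low in B and plasma cell genes it was 0.51 (adjusted p = 0.591 by limma). Without RYGB replicate 4, its difference was 0.69 with an adjusted p of 0.169, the lowest that any gene of the set reached for RYGB in any of the fits run.

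**Figure D4:**
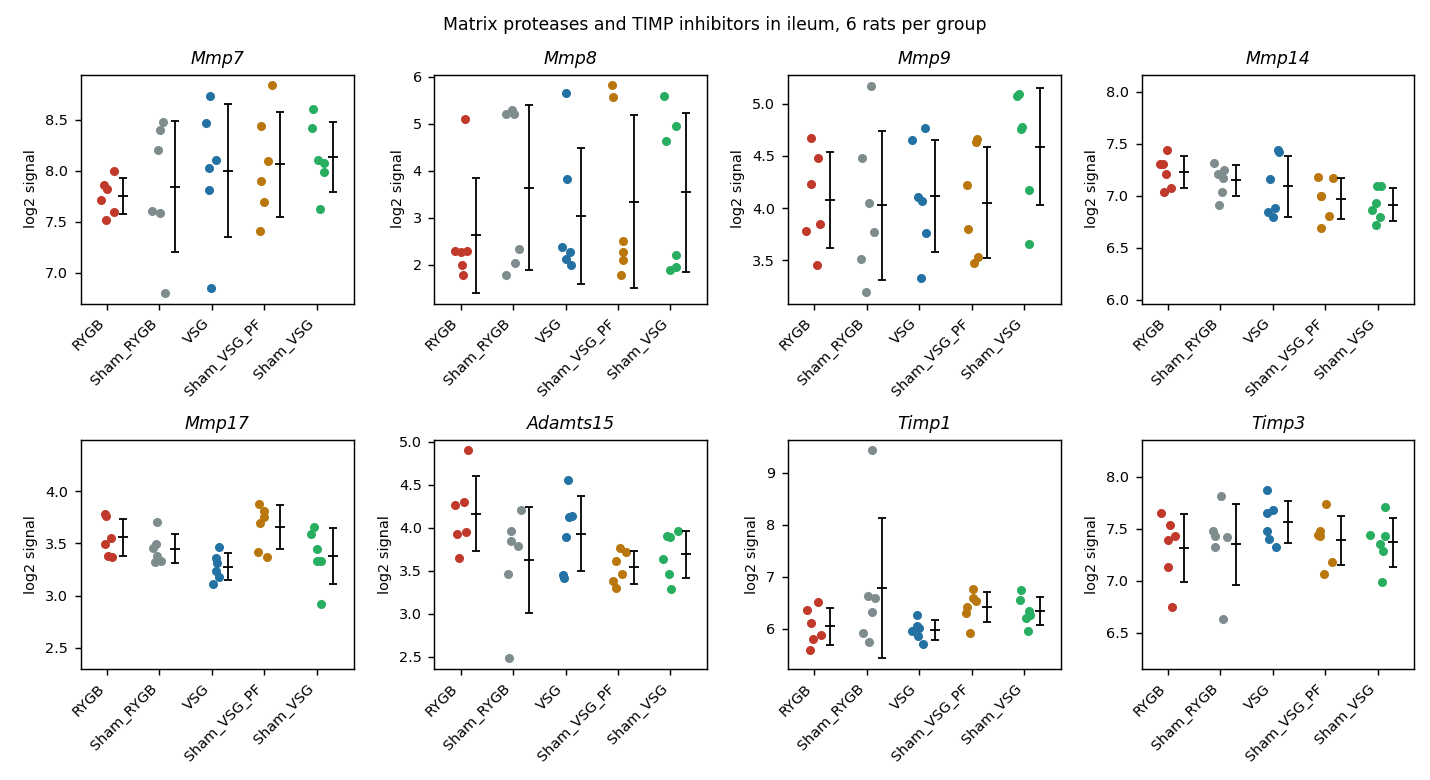
Log2 signal of 6 proteases and 2 TIMP inhibitors in each rat (points) with the group mean and SD (bars, 6 rats per group), for RYGB, Sham_RYGB, VSG, Sham_VSG_PF and Sham_VSG. Mmp8 falls into a low and a high cluster in every group, and 1 Sham_RYGB rat stands at 9.43 for Timp1.

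Mmp8, the collagenase best known from neutrophil granules, had the largest spread of the set, with a residual SD of 1.61. The median over the set was 0.27, against 0.26 over all genes. Mmp8 followed lymphoid content: it lay at 3.83 to 5.83 (median 5.20) in the 11 arrays high in B and plasma cell genes and at 1.77 to 2.51 (median 2.13) in the 19 low ones. There was no overlap, and the same split was seen inside each of the 5 groups. It was the only gene of the 63 that lay wholly higher in those arrays (1.59%, and 2.78% of all genes), and 0 lay wholly lower (0.256% of all genes). Most of the 19 low arrays had Mmp8 below the filter value of 2.33, so it passed the filter through the high arrays.

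The median of Mmp8 was 2.28 in RYGB, with 1 high array, and 3.76 in Sham_RYGB, with 3. It was 2.32 in VSG and 2.39 in Sham_VSG_PF, with 2 high arrays each, and 3.42 in Sham_VSG, with 3. The difference was -1.01 (-2.81 to 0.78, adjusted p = 0.619), 0.18 with the B and plasma cell mean as a covariate and 0.08 in the low arrays alone. Leaving out 1 array moved it between -1.51 (without RYGB replicate 4) and -0.68 (without Sham_RYGB replicate 3). For VSG against Sham_VSG it was -0.49, and 0.30 and 0.17 in those 2 fits. Leaving out 1 array moved that one between -1.02 (without VSG replicate 4) and -0.08 (without Sham_VSG replicate 2). The residual SD was 0.33 with the covariate. Neutrophil genes, of which 4 were tested (S100a9, Csf3r, Ncf1 and Camp), had a list mean of 4.11 to 5.80 (median 4.60) in the 11 high arrays and 3.38 to 4.17 (median 3.89) in the 19 low ones. S100a8, Cxcr2 and Fpr1 lay under the filter value and were left out of that mean.

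Mmp9, the gelatinase of leukocytes, and Col14a1, a collagen that coats type I fibrils, were also higher in the lymphoid arrays, but with overlap. Mmp9 lay at 4.05 to 5.18 (median 4.65) in the 11 high arrays and 3.19 to 4.78 (median 3.78) in the 19 low ones. Col14a1 lay at 3.89 to 5.04 (median 4.44) and 3.18 to 4.54 (median 3.84) in the same arrays. Col6a1 went the other way, at 6.33 to 7.0 (median 6.65) in the high arrays and 6.68 to 7.34 (median 6.95) in the low ones. The pericyte list mean was 4.97 to 5.63 (median 5.20) in the high arrays and 5.19 to 5.74 (median 5.43) in the low ones. After each group's mean was taken off, the smooth muscle list mean correlated with Mmp8 (r = -0.81), Mmp9 (-0.63), Col14a1 (-0.55) and Col6a1 (0.67). The parts of neutrophils in the Mmp8, Mmp9 and Col14a1 values and of pericytes in those of Col6a1 were not tested apart from lymphoid content. Nor was that of smooth muscle in any of the 4. Inside the 2 ranges, 8 relations of these 4 genes with the B and plasma cell list mean were computed, chosen after their values were seen. None passed an adjusted permutation p of 0.05, the lowest being 0.0853 for Mmp8 over the 11 high arrays (r = 0.71, rho = 0.58), where r was 0.21 without the 2 farthest arrays.

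With the B and plasma cell mean as a covariate, the residual SD fell below 0.9 of its value for 17 of the 63 genes (27%), against 37.8% of all genes, and with the smooth muscle mean for 14 (22.2%), against 33.9%. With the fat cell mean it did so for 1 gene (1.59%), against 1.65% of all genes.

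**Figure D5:**
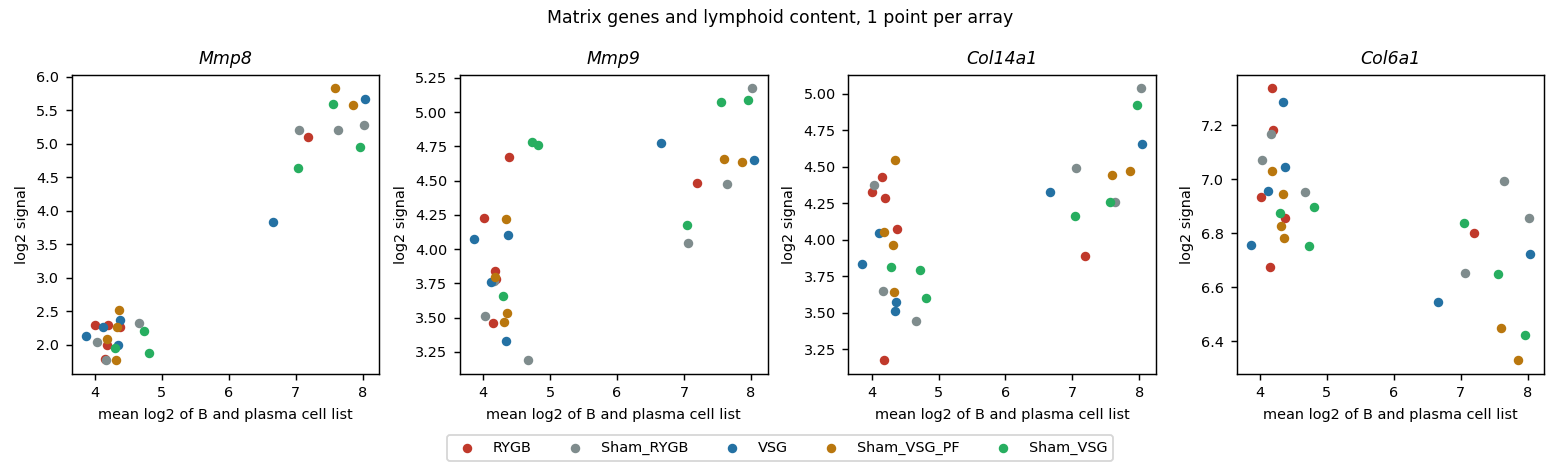
Log2 signal of Mmp8, Mmp9, Col14a1 and Col6a1 against the mean log2 signal of 11 B and plasma cell genes, 1 point per array, coloured by group. Arrays form a low range of 3.86 to 4.81 and a high range of 6.66 to 8.04, and Mmp8 alone separates fully between them.

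Genes around the matrix were taken from 5 companion lists. Of 16 tested genes for collagen maturation and crosslinking, 20 for other matrix proteins, 15 receptors, 11 of the TGF-beta pathway and 14 for other matrix proteases and their inhibitors, 0 passed the limma test for RYGB (0.183% of all genes) or for VSG against either sham (0.0% of all genes in each). Before adjustment, p was under 0.05 for RYGB in 1, 2, 0, 3 and 4 of them in that order, against 13.0% of all genes. For VSG it was in 2, 0, 0, 0 and 0 of them against Sham_VSG_PF (5.94% of all genes) and in 0, 0, 1, 0 and 0 against Sham_VSG (6.05% of all genes). From each list the gene with the smallest p for RYGB is given. Plat, the tissue plasminogen activator, which generates plasmin, lay at 7.67 to 8.76 in RYGB (median 7.78) and 6.56 to 7.62 in Sham_RYGB (median 7.25). The groups did not overlap, as for the 0.458% of all genes given above, and the difference was 0.88 (0.37 to 1.40, a fold of 1.84, adjusted p = 0.148).
In VSG, Plat lay at 6.75 to 7.27 (median 7.03), against 6.68 to 7.61 in Sham_VSG_PF (median 6.89) and 6.53 to 8.33 in Sham_VSG (median 7.58). Its difference was 0.06 from Sham_VSG_PF and -0.47 from Sham_VSG. Set against each other, the RYGB difference exceeded the VSG one by 1.35 (0.63 to 2.08, adjusted p = 0.695). Loxl3, a collagen crosslinking oxidase, differed by -0.42 for RYGB (-0.75 to -0.08, adjusted p = 0.284), and Ogn, a small leucine-rich proteoglycan of fibroblasts, by -0.39 (-0.68 to -0.09, adjusted p = 0.258). Bcam, a laminin receptor, differed by -0.29 (adjusted p = 0.435) and Smad3, a TGF-beta signal carrier, by 0.27 (adjusted p = 0.340).

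The remaining 12 genes of the set had mean signals of 1.47 to 2.31, under the filter value of 2.33, and were not tested. They were the collagens Col4a6, Col6a6, Col7a1, Col11a1, Col19a1 and Col28a1, the laminin Lamc3, the protease Adamts19 and the metalloproteinases Mmp1, Mmp3, Mmp20 and Mmp27. The last 4 belong to the row of neighbours on chromosome 8. With no filter, 0 genes of the set were called in any comparison.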

How the data were processed

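Total RNA of 30 ilea was amplified and biotin-labelled, per the labels' protocols, and read on 1-colour Affymetrix arrays. The authors deposited log2 signals, made by RMA with Affymetrix Expression Console 1.3.0.187, per the submitters' processing notes. RMA corrects background, quantile normalizes probes and summarises them per transcript cluster, which makes arrays alike in scale and compresses low signals. Which arrays were normalized together, and the genome build, are not given in the sources used here. Groups came from the sample labels.

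Of 36685 clusters, 14824 carried 1 symbol, 829 several and 21032 none. The cluster with the highest mean stood for each of 14557 symbols, and genes with a mean under the 25th percentile (log2 2.33) were left out. All 75 symbols of the set were found in the RefSeq table, and 58 had a promoter there (GRCr8).

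limma 3.58.1 in R 4.3.3 fitted a mean per group to all 30 arrays, with 25 residual degrees of freedom. Tests were two-sided and adjusted by Benjamini and Hochberg over 10918 genes, with a threshold of 0.05. The method was tested on simulated data. Correlations used permutation tests in scipy 1.17.1, and figures matplotlib 3.10.9. The number of arrays limits the precision: the median 95% interval of a log2 difference reached 0.31 to either side.

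The members and lists were chosen with earlier results of these data known. The genes named were, per contrast, the 4 with the smallest p, per class the 2 with the highest mean, the 4 with the largest residual SD, the listed chains, and per companion list the 1 with the smallest p for RYGB. Col5a3, Mmp10 and a few others were named after their values were seen. Alternatives were other normalizations, filters, thresholds, weights, moderation, averaging a gene's clusters, the groups compared alone, the replicate block, cell type lists as covariates, subsets of arrays, and leaving out each array.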

Additional observations from a re-analysis of the deposited data

Results flagged for a closer look

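Each of 33 genes was examined in each of 5 groups for a single rat whose gap to its nearest neighbour was large for the range of its 6 rats. Of these 165 sets, 11 were picked out, and chance alone picks out about 1 in 20 (Dixon's 95% critical value). That rate holds for sets not chosen by their values. Some of the 33 genes were chosen for a large spread or a small p, and the sets share rats. No excess over chance can therefore be read from the 11.

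For 4 of the 11, the rat was in RYGB. RYGB replicate 4 had an Mmp8 signal of 5.11, with the other 5 at 1.79 to 2.29, and it was the 1 RYGB array in the high B and plasma cell range. RYGB replicate 3 was low in Fbn1, at 5.34 (others 5.79 to 6.06), and high in Lama1, at 2.84 (others 2.50 to 2.62). RYGB replicate 1 was high in Fbln5, at 6.06 (others 5.59 to 5.74).

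In Sham_RYGB, replicate 2 was low in 3 genes. Its signals were 6.85 for Col3a1 (others 7.36 to 7.51), 5.15 for Fbn1 (others 5.53 to 5.62) and 4.83 for Lama5 (others 5.32 to 5.53). Sham_RYGB replicate 3 had a Timp1 signal of 9.43 (others 5.75 to 6.64).

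In the sleeve groups, VSG replicate 4 was low in Lama1, at 2.47 (others 2.60 to 2.64). Sham_VSG_PF replicate 5 was low in Col5a2, a chain of type V collagen, at 3.06 (others 3.86 to 3.98). Sham_VSG replicate 4 was low in Col4a1, at 4.96 (others 5.41 to 5.60).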

How the results depend on the processing

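In 231 repeats of the 7 tests with other settings, the count of matrix genes called was 0, as in the fits reported. Those with other thresholds reused the reported fits, and a limit on the fold could not have raised a count of 0. With the replicate block, 0 were called too. Deviations from the group mean correlated at -0.66 to 0.70 (median r 0.08) for 60 pairs of same-numbered rats of different groups. For 300 pairs of other numbers r was -0.65 to 0.75 (median 0.02). With ranges this wide, the comparison cannot decide whether the numbers pair rats. The lowest adjusted p in any setting was 0.126, for Mmp17 in VSG against Sham_VSG_PF with a smooth muscle covariate, where its own unadjusted p was larger than without it. Of 862 refitted differences of single genes, 846 kept their sign and 16 turned, all in Mmp7, Mmp8 or Mmp9, and none passed the test. Mmp8 turned to 0.18 for RYGB and 0.30 for VSG against Sham_VSG with the B and plasma cell covariate, and to 0.08 and 0.17 in the arrays low in those genes. Mmp7 turned to 0.02 for RYGB with the fat cell covariate, and for VSG against Sham_VSG to 0.03 with array weights and 0.13 in the low arrays. Mmp9 for RYGB, 0.05, turned to -0.05 with the fat cell covariate and was 0.51 in the low arrays. Leaving out 1 array gave -0.30 to 0.03 for Mmp7 in RYGB, -0.28 to 0.09 for Mmp7 in VSG against Sham_VSG and -0.12 to 0.28 for Mmp9 in RYGB. Col4a3 for RYGB, which is not among the 862, was -0.18 and turned to 0.03 when the 4 fat-rich arrays were left out. With the fat cell covariate it was -0.17. For Mmp7, Mmp9 and Col4a3 the cause was not tested. In the low arrays Col4a2 was 0.00 for RYGB and 0.12 for VSG against Sham_VSG. With the B and plasma cell covariate it was 0.16 and 0.29. With the pericyte list mean also taken off, chosen after the data were seen, the correlation stayed past the threshold for Col4a1 with Col4a2 (0.53) and not for Col1a1 with Col1a2 (0.40), Lamb1 with Lamc1 (0.32), Lama5 with Lamc1 (0.31) or Col6a1 with Col6a2 (0.16). With 6 arrays per group, a median 95% interval of 0.31 to either side limits what could be seen, and dim genes such as Lama1 lie where RMA compresses differences.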
